A study of Homo sapiens with 3 samples.

Results

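The interferon gamma receptor to IRF1 axis was followed across RNA-seq libraries of DU145, an androgen-independent human prostate cancer cell line. Its 8 members were taken by gene name from the 58735 genes in the deposited count files. They are the receptor chains IFNGR1 and IFNGR2, the Janus kinases JAK1 and JAK2, the transcription factors IRF1 and IRF2, and the inhibitors SOCS1 and PTPN2. Each member was matched once by name, and all 8 had at least 10 counts over the 3 libraries, the minimum for testing that 19849 genes met.

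The study asked how loss of PD-L1, the immune checkpoint ligand encoded by CD274, changes gene expression in castration-resistant prostate cancer cells. It comprised 1 control and 2 further libraries with the label PD-L1 knockdown, for shRNA 1 and shRNA 2, called here by the labels knockdown 1 and knockdown 2. The knockdown method of the study used the lentiviral vector pLKO.1, empty as its control, and puromycin selection, but whether the sequenced control carried that empty vector or was selected is not stated. No label names an interferon treatment, and the control had no replicate. The 2 libraries labelled knockdown are taken to differ in their hairpin, though the paper prints the sequence of only 1. Their spread then holds both the hairpin and the library, which cannot be told apart. Nothing in the labels says that the cultures were separate, so p-values measure only the spread between these libraries, which edgeR's test pooled over genes.

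Interferon gamma is a cytokine released mainly by T cells and natural killer cells. It binds IFNGR1, and IFNGR2 joins the complex. The associated kinases JAK1 and JAK2 then pass the signal to the nucleus, where it acts on genes with gamma-activated sites in their DNA. IRF1 is among the first genes induced and in turn binds interferon-stimulated response elements. IRF2 binds much the same elements and is known mostly as a repressor there. SOCS1 blocks the kinases, and the phosphatase PTPN2 removes phosphate from JAK1. In tumour cells this axis is known as the main inducible route to CD274 transcription.

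The libraries were checked before the members were compared. The totals lay between 14733088 and 15786457 counts, and 24735 to 25617 genes were detected. CD274, the target of the shRNAs, was not lower in the libraries labelled knockdown: it had 204 counts in the control and 213 and 224 counts in the libraries labelled knockdown 1 and 2. Its log2 fold change was 0.05 ± 0.20 (SE, 2 libraries against 1), and the adjusted p of edgeR's quasi-likelihood test was 0.947. Each direction below is therefore one between libraries by their labels, and none can be tied to lower CD274 RNA. The paper reports a western blot check of PD-L1 protein in its stable knockdown lines, DU145 among them, before further work. Counts of RNA do not measure that protein, and its level in the sequenced cultures is not known from these data. In bulk RNA, fewer cells that express a gene and less of its RNA per cell cannot be told apart. The series' design text names BCPAP, a thyroid cancer line, and the control's count column is headed with RBM45. The epithelial keratins KRT8, KRT18 and KRT19 were at 147 to 186 FPKM, the deposited level scaled by gene length and library size, and the luminal prostate genes KLK3, KLK2, TMPRSS2 and FOLH1 had 0 counts in every library. Of the thyroid markers, TG, TSHR, SLC5A5 and PAX8 had at most 29 counts, while NKX2-1 had 1833, 2118 and 2590. The summed level of the 7 immune cell markers was 1.27 to 1.70 CPM (counts scaled by library size), and CD3E had 0 counts.

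Sequence upstream of IRF1 and SOCS1 is shown because the pathway itself is known to induce both. That of CD274 is shown because it is the target of the shRNAs and lies at the end of the route. The letters are from RefSeq (GRCh38.p14), from 250 bases before the RefSeq start towards the gene, and stop where the gene begins in the deposited annotation. Capitals mark gamma-activated sites, searched as TTCNNNGAA, and the core of interferon-stimulated response elements, searched as GAAA, any 2 bases and GAAA again, both on either strand. The IRF1 stretch is chr5:132490799-132491023 on the minus strand, the SOCS1 stretch chr16:11256205-11256454 on the minus strand, and the CD274 stretch chr9:5450292-5450502 on the plus strand.
IRF1: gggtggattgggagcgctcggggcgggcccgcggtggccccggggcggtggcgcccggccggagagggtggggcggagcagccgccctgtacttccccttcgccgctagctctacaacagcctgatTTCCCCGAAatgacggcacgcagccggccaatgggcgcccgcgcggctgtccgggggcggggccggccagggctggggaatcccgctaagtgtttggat
SOCS1: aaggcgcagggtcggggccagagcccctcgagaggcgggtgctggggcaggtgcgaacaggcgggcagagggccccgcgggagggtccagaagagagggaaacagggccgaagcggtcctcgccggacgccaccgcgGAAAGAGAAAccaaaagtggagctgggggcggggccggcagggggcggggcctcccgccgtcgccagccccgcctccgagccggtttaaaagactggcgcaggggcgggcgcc
CD274: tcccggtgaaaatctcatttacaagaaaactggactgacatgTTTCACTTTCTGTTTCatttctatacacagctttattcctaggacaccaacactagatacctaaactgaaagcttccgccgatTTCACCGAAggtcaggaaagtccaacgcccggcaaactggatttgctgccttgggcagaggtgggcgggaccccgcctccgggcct

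IRF1 holds a gamma-activated site 124 to 116 bases before its start. SOCS1 holds 1 response element core, 113 to 104 bases before its start. CD274 holds both kinds: a pair of overlapping cores at 208 to 199 and 202 to 193 bases, and a gamma-activated site at 125 to 117 bases before its start. Over 35116 promoters of the same length, 6.57% held the gamma-activated site letters and 3.02% the core letters. Neither motif was found in this window for IFNGR1, IFNGR2, JAK1, JAK2 or PTPN2. The windows of PTPN2 (12840963 to 12841212) and IFNGR2 (33403163 to 33403412) lie inside these genes as annotated. Sequence before the annotated starts of these genes, 12929643 for PTPN2 and 33402896 for IFNGR2, was thus not searched. A promoter entry was matched for 7 of the 8 members, IRF2 being without one. These matches are letters in a window and no measurement of binding.

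All members were transcribed in all libraries, at levels that differed far more between genes than between libraries. Per length, the mean FPKM over the 3 libraries was 20.4 ± 0.0974 for JAK1, 13.2 ± 1.01 for IFNGR2, 8.48 ± 0.630 for PTPN2, 7.42 ± 0.256 for IFNGR1, 3.31 ± 0.334 for IRF1, 3.11 ± 0.286 for IRF2, 2.29 ± 0.318 for JAK2 and 0.380 ± 0.114 for SOCS1 (SD, n = 3, both groups together). IRF1 and IRF2 were the only neighbours in this order whose ranges over the libraries overlapped. In the control, JAK1 stood above 88.8% of the tested genes in FPKM, JAK2 above 50.2% and SOCS1 above 14.0%.

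**Figure D1:**
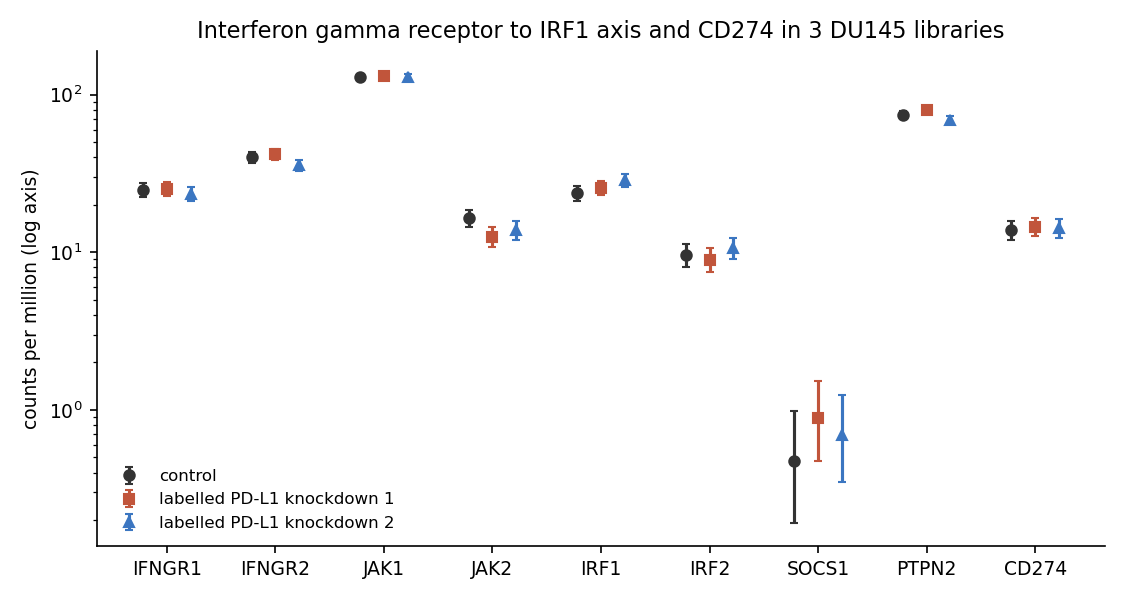
CPM of the 8 members and CD274 (log axis) in the control and the libraries labelled knockdown 1 and 2. Points are libraries and bars are exact 95% Poisson intervals, which cover counting error only. The 3 points of each gene lie close together beside the spread from JAK1 at about 130 to SOCS1 below 1, and the bars of SOCS1 are the widest.

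No member passed the test between the libraries labelled knockdown and the control. At an adjusted p under 0.05 in edgeR's test, 0 of the 8 members were called, beside 0.353% of all tested genes (70 of 19849, 49 higher and 21 lower). At an unadjusted p under 0.05 the members again gave 0 of 8, beside 11.7% of all tested genes. DESeq2 and limma-voom also called 0 members, and neither put any member under an unadjusted p of 0.05. The median log2 fold change of the members was 0.01, and that of all tested genes was 0.00. The control is shared by both ratios given below for each gene, so the 2 ratios of a gene are not independent of each other. Their exact 95% intervals cover counting error only and compare libraries, not conditions.

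Neither receptor chain passed the test. IFNGR1 (ENSG00000027697, chromosome 6, 137197484 to 137219449, minus strand of GRCh38), the ligand-binding chain, had 365 counts in the control and 369 in each of the libraries labelled knockdown. This was 24.7, 25.1 and 23.4 CPM. Both ratios to the control, 1.02 (0.876 to 1.18) and 0.944 (0.815 to 1.09), lay within counting error of 1, and the log2 fold change was -0.03 ± 0.17 (SE) with a fitted 95% interval of 0.774 to 1.24 for the fold. The sign of so small a value depends on the setting: it was 0.11 with the trends for GC content and length removed.

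IFNGR2 (ENSG00000159128, chromosome 21, 33402896 to 33479348, plus strand), the chain that brings in JAK2, had 592, 612 and 563 counts, or 40.1, 41.7 and 35.7 CPM. The library labelled knockdown 2 was the lowest. It stood at 0.888 times the control (0.790 to 0.999) and 0.855 times the library labelled knockdown 1 (0.762 to 0.961), whereas the latter was at 1.04 times the control (0.926 to 1.16). The control thus lay between the libraries labelled knockdown, and the log2 fold change was -0.05 ± 0.15 (SE, fold interval 0.781 to 1.19). IFNGR2 and TMEM50B overlap on opposite strands over 12.8% of IFNGR2's exon bases. TMEM50B had 491, 431 and 462 counts, and since the strand setting of the counting was not stated, reads of that part are uncertain. Within a library, the FPKM of IFNGR2 was 1.80 times that of IFNGR1 in the control (1.57 to 2.05), 1.84 times in the library labelled knockdown 1 (1.61 to 2.095) and 1.69 times in that labelled knockdown 2 (1.48 to 1.93), so these ratios overlapped in their intervals.

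Of the kinases, JAK1 was the member with the smallest difference and JAK2 the well-counted member with the largest difference. JAK1 (ENSG00000162434, chromosome 1, 64833229 to 64966504, minus strand), which binds IFNGR1, had 1911, 1917 and 2031 counts, or 129.6, 130.5 and 128.6 CPM. Its ratios to the control were 1.01 (0.945 to 1.07) and 0.993 (0.932 to 1.06). It gave a log2 fold change of 0.00 ± 0.12 (SE, fold interval 0.848 to 1.18), and 99.95% of the 10861 genes that averaged at least 100 counts had a larger one in size.

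JAK2 (ENSG00000096968, chromosome 9, 4984390 to 5128183, plus strand), which binds IFNGR2, lies on the same chromosome as CD274. It had 242, 184 and 217 counts, or 16.4, 12.5 and 13.7 CPM. Both libraries labelled knockdown were below the control. The ratio was 0.764 (0.627 to 0.929) in the library labelled knockdown 1 and 0.838 (0.694 to 1.01) in that labelled knockdown 2, and the 2 did not differ beyond counting error (1.10, 0.897 to 1.34). The log2 fold change of -0.32 ± 0.20 (SE, fold interval 0.611 to 1.05) did not pass the test, with an unadjusted p of 0.108 and an adjusted p of 0.537 in edgeR's test. Among those well-counted genes, 14.3% had a larger log2 fold change in size. With the trends for GC content and length removed, the value of JAK2 was -0.15.

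Because JAK2 and JAK1 were counted in the same libraries, their ratio does not depend on the scaling between libraries. The FPKM of JAK2 was 0.130 times that of JAK1 in the control (0.113 to 0.148), 0.0983 times in the library labelled knockdown 1 (0.0840 to 0.114) and 0.109 times in that labelled knockdown 2 (0.0947 to 0.126). Relative to the control this ratio was 0.758 (0.616 to 0.932) and 0.844 (0.692 to 1.03), with exact conditional intervals for counts. Of these, only the interval of the library labelled knockdown 1 left out 1.

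Neither transcription factor passed the test. IRF1 (ENSG00000125347, chromosome 5, 132481609 to 132490798, minus strand), the activator, had 348, 377 and 452 counts, or 23.6, 25.7 and 28.6 CPM. Both libraries labelled knockdown were above the control, at 1.09 times (0.938 to 1.26) and 1.21 times (1.05 to 1.40). The log2 fold change of 0.20 ± 0.17 (SE, fold interval 0.911 to 1.45) did not pass the test, with an unadjusted p of 0.240 and an adjusted p of 0.675 in edgeR's test. In size, 35.7% of the well-counted genes had a larger one. Part of the IRF1 locus is also annotated on the other strand: C5orf56 shares 22% of IRF1's exon bases and AC116366.3 a further 6.01%. C5orf56 had 104, 106 and 88 counts and AC116366.3 had 3, 4 and 2, and reads in the shared exons cannot be assigned without strand.

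IRF2 (ENSG00000168310, chromosome 4, 184387713 to 184474580, minus strand) had 142, 131 and 168 counts, or 9.63, 8.92 and 10.6 CPM. The control lay between the libraries labelled knockdown, at ratios of 0.927 (0.725 to 1.18) and 1.11 (0.878 to 1.39). IRF2 gave a log2 fold change of 0.02 ± 0.23 (SE, fold interval 0.744 to 1.39). Within a library, the FPKM of IRF1 was 0.979 times that of IRF2 in the control (0.803 to 1.20), 1.15 times in the library labelled knockdown 1 (0.940 to 1.41) and 1.07 times in that labelled knockdown 2 (0.899 to 1.29). IRF1's listed length of 7799 bases is the union of all annotated exons, against 3579 bases for its longest coding transcript. With the longest coding transcript of each gene as the length, a choice made after the values were seen, IRF1 stood at 1.58, 1.85 and 1.73 times IRF2, so the gap between the pair depends on the length used.

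The genes whose pattern over the libraries was nearest to IRF1's, by the distance of the 2 log2 ratios to the control among genes averaging at least 100 counts, were TYK2, CES2 and AJUBA, at distances of 0.0033, 0.0051 and 0.0054 on the log2 scale over 3 libraries. TYK2, itself a Janus kinase, had 1874, 2034 and 2432 counts. The likeness is loose: 3251 of the 10861 genes (29.9%) had both ratios inside IRF1's counting intervals.

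Of the inhibitors, SOCS1 was barely transcribed and PTPN2 was abundant. SOCS1 (ENSG00000185338, chromosome 16, 11254405 to 11256200, minus strand) had 7, 13 and 11 counts, or 0.475, 0.885 and 0.697 CPM, above the 0.203, 0.204 and 0.190 CPM that a count of 0 allows (3 counts per library). Both libraries labelled knockdown had more counts than the control, but the counts were too few to separate them: the ratios were 1.87 (0.692 to 5.52) and 1.47 (0.520 to 4.47). SOCS1 gave a log2 fold change of 0.72 ± 0.90 (SE, fold interval 0.488 to 5.59). A change of SOCS1 smaller than that interval was not detectable at this depth.

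PTPN2 (ENSG00000175354, chromosome 18, 12785478 to 12929643, minus strand) had 1089, 1177 and 1085 counts, or 73.8, 80.2 and 68.7 CPM. The library labelled knockdown 1 was the highest and that labelled knockdown 2 the lowest, at 1.09 times (0.999 to 1.18) and 0.931 times (0.855 to 1.01) the control, and the second library was at 0.857 times the first (0.789 to 0.932). PTPN2 gave a log2 fold change of 0.01 ± 0.13 (SE, fold interval 0.841 to 1.21). Other genes share 11.5% of PTPN2's words of 31 bases, the largest part (4.32%) with the pseudogene PTPN2P1, which had 0, 3 and 5 counts.

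**Figure D2:**
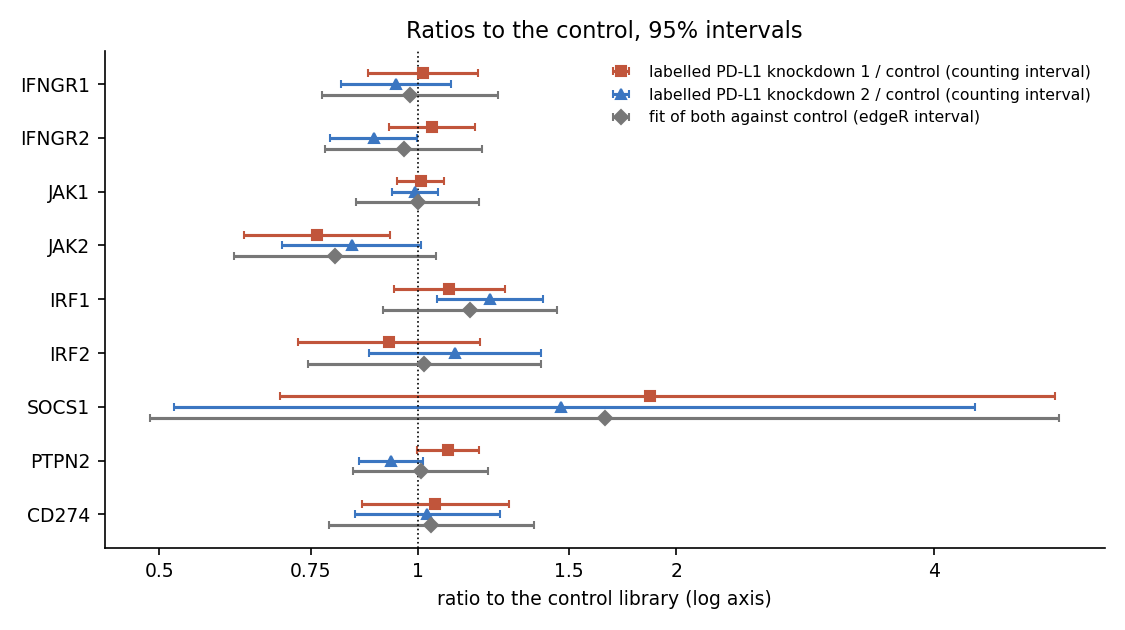
Ratio of each library labelled knockdown to the control (log axis) for the 8 members and CD274, with exact 95% counting intervals, beside the edgeR fit of both libraries with its 95% interval. Every fitted interval includes 1, and JAK2 lies lowest and SOCS1 highest.

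Counting intervals that left out 1 were common among all genes. For the library labelled knockdown 1 the interval left out 1 for 1 of 8 members (JAK2), beside 29.0% of all tested genes. For the library labelled knockdown 2 it did so for 2 of 8 (IFNGR2 and IRF1), beside 38.2%. Between the 2 libraries labelled knockdown it did so for 2 of 8 (IFNGR2 and PTPN2), beside 26.2%. The members' shares were thus below or near the share of all genes.

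**Figure D3:**
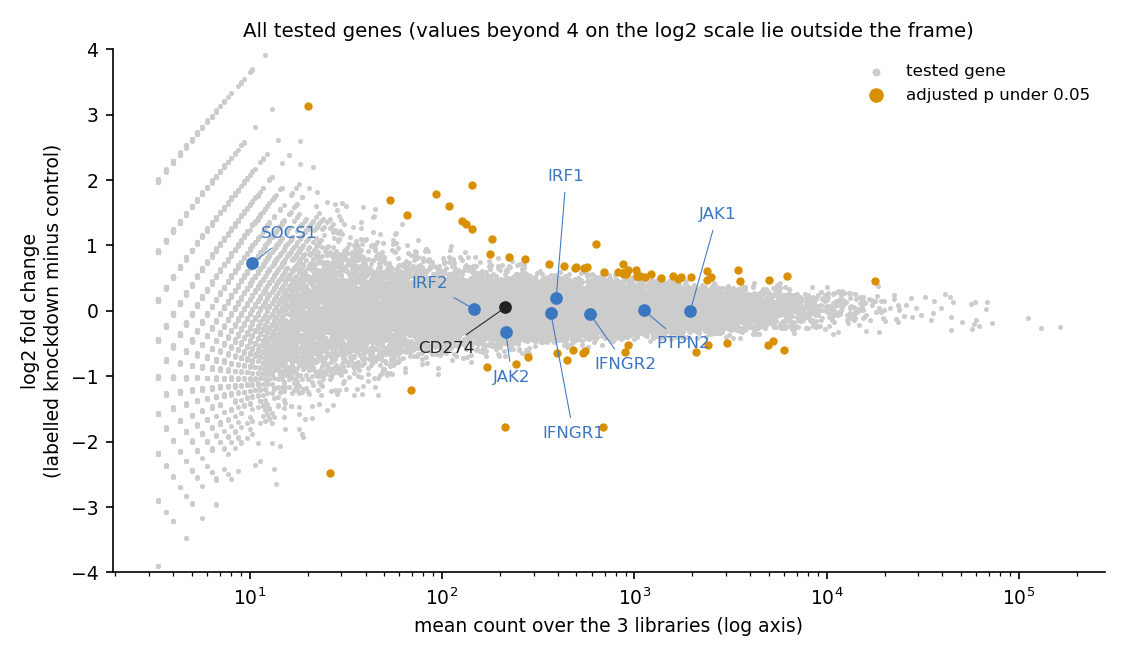
Log2 fold change of the libraries labelled knockdown minus the control against the mean count over the 3 libraries (log axis) for the tested genes. Orange points mark the genes at an adjusted p under 0.05, and the members (blue) and CD274 (black) lie inside the grey cloud at their counts.

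The rest of the pathway was read from lists of genes, some of which stand in more than 1 list. In the list of the ligand and related cytokine receptors, 0 of 5 tested genes were called, with 0 at an unadjusted p under 0.05 and 0 calls by DESeq2 or limma-voom. The median log2 fold change of the list was -0.07. IFNG, the ligand itself, had 0 counts in all libraries, which allows up to 0.203, 0.204 and 0.190 CPM. IFNAR1, a chain of the type I interferon receptor, was the highest of the list, at 19.1, 17.5 and 18.9 FPKM. IFNAR2, its partner, was at 1.40, 0.821 and 1.18 FPKM, with a log2 fold change of -0.49 ± 0.29 (SE). IFNLR1, a type III interferon receptor chain, was at 0.780, 1.24 and 1.09 FPKM, with a log2 fold change of 0.57 ± 0.31 (SE). IFNGR1 and IFNGR2 were thus below IFNAR1 and above the other named receptor chains in FPKM.

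In the list of other JAK and STAT genes, 0 of 9 were called, with 0 at an unadjusted p under 0.05 and 0 calls by DESeq2 or limma-voom, and the median log2 fold change was -0.02. STAT3, a factor known mainly from interleukin signalling, was above every member of the axis in each library, at 49.1, 49.7 and 54.3 FPKM. TYK2 was at 18.6, 20.3 and 22.7 FPKM, near JAK1, while JAK3 was at 0.801, 0.824 and 0.762 FPKM, below JAK2. The largest differences among well-counted genes of this list were -0.32 ± 0.24 for STAT4 and 0.21 ± 0.25 for STAT5A (log2 fold change, SE), neither of which passed the test.

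In the list of other IRF genes and IRF2 partners, 0 of 9 tested genes were called, with 0 at an unadjusted p under 0.05 and 0 calls by DESeq2 or limma-voom. The median log2 fold change was 0.08. IRF2BP2 and IRF2BPL, both named as partners of IRF2, were the most abundant of the list, at 23.4, 23.1 and 24.7 FPKM and at 17.6, 16.9 and 20.5 FPKM. IRF3, which responds to foreign nucleic acid rather than to interferon gamma, was at 13.5, 13.9 and 15.3 FPKM, above IRF1 and IRF2. IRF5 gave a log2 fold change of -0.27 ± 0.25 and IRF2BP1 of 0.25 ± 0.16 (SE), and neither passed the test.

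In the list of other negative regulators, 0 of 15 genes were called, with 0 calls by DESeq2 or limma-voom, and the median log2 fold change was 0.06. At an unadjusted p under 0.05 it held 2 of 15 genes (13.3%), SOCS4 and SOCS3, beside 11.7% of all tested genes. SOCS3, a related inhibitor that is itself induced by cytokines, had 276, 297 and 442 counts, and the library labelled knockdown 2 stood apart from the others. Its log2 fold change was 0.37 ± 0.18 (SE), and the adjusted p in edgeR's test was 0.404. SOCS4 had 1715, 1494 and 1442 counts, with a log2 fold change of -0.27 ± 0.13 (SE) and an adjusted p of 0.370 in edgeR's test. PIAS4, an inhibitor of STAT activity, had 503, 550 and 723 counts, with a log2 fold change of 0.29 ± 0.16 (SE). The phosphatases PTPN11 (63.8, 60.7 and 55.8 FPKM) and PTPN1 (48.6, 52.1 and 46.1 FPKM) were above PTPN2 in every library, and SOCS1 and CISH (0.329, 0.357 and 0.495 FPKM) were the lowest of the SOCS family, neither being below the other in every library.

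**Figure D4:**
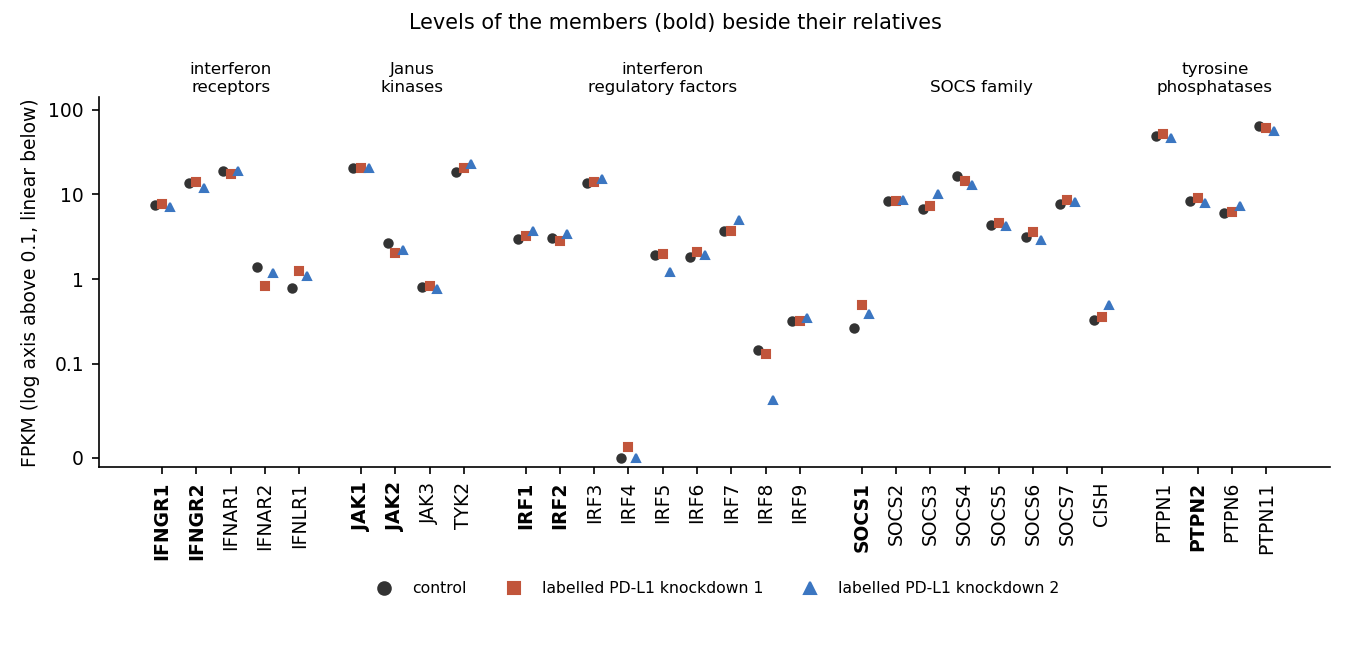
FPKM of the members (bold names) and their relatives in the 3 libraries, on a log axis above 0.1 and a linear axis below. Symbols are libraries and carry no error bars. JAK1 sits near TYK2, IRF1 and IRF2 sit below IRF3, and SOCS1 lies well below SOCS2 to SOCS7.

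The last list holds 57 genes that interferon gamma is known to induce, of which 47 could be tested. Of these, 1 was called, HLA-C, and it rose. At an unadjusted p under 0.05 the list held 5 of 47 (10.6%), near the 11.7% of all tested genes: HLA-C, PSMB9, TAP1 and SOCS3 were on the higher side and APOL6 on the lower. The median log2 fold change was 0.12 beside 0.00 for all tested genes, with 66.0% of the 47 above 0 beside 50.2% of all tested genes. With the trends for GC content and length removed, the median of the list was 0.03 and 0 of its genes were called.

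HLA-C (ENSG00000204525, chromosome 6, 31268749 to 31272130, minus strand), a class I molecule that presents peptides to T cells and engages receptors of natural killer cells, had 1902, 2549 and 3103 counts, or 51.1, 68.8 and 78.3 FPKM. Both libraries labelled knockdown were above the control, at 1.35 times (1.27 to 1.43) and 1.52 times (1.44 to 1.61). The log2 fold change was 0.52 ± 0.12 (SE) with an adjusted p of 0.0136 in edgeR's test, which was 0.284 with the trends for GC content and length removed and 1.00 in DESeq2. Other genes share 17.0% of HLA-C's words of 31 bases, most of them (10.4%) with HLA-B, so reads may be split between the pair. HLA-B had 1729, 1980 and 2215 counts, with a log2 fold change of 0.23 ± 0.12 (SE) and an adjusted p of 0.451 in edgeR's test. NKX2-1 of the thyroid markers and KRT19 of the epithelial list also had log2 fold changes above 0, as did 50.2% of all tested genes. Their values were 0.31 ± 0.12 and 0.24 ± 0.11 (SE), with adjusted p of 0.268 and 0.374 in edgeR's test. Whether either gene bears on HLA-C was not tested.

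The other parts of the class I machinery did not pass the test. PSMB9, a subunit of the immunoproteasome, had 199, 262 and 323 counts (log2 fold change 0.51 ± 0.20, SE, adjusted p 0.263 in edgeR's test). TAP1, a chain of the peptide transporter, had 916, 1101 and 1266 counts (0.32 ± 0.13, adjusted p 0.316 in edgeR's test). B2M, the light chain of class I molecules, was at 67.6, 70.0 and 73.9 FPKM, and TAPBP, which loads peptides, was at 60.9, 63.7 and 74.2 FPKM. In contrast to these, IDO1, CXCL9, CXCL10, CXCL11, GBP5 and IFI30, genes that interferon gamma is known to induce, had 0 counts in all libraries, the floor of 3 counts being at most 0.204 CPM. These were 6 of the 57 genes of the list, beside 29135 of all 58735 genes at 0 counts. The receptor chains and kinases were thus measured in libraries in which the ligand and these 6 inducible genes were not detected. Whether the axis was active in these cells was not tested.

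**Figure D5:**
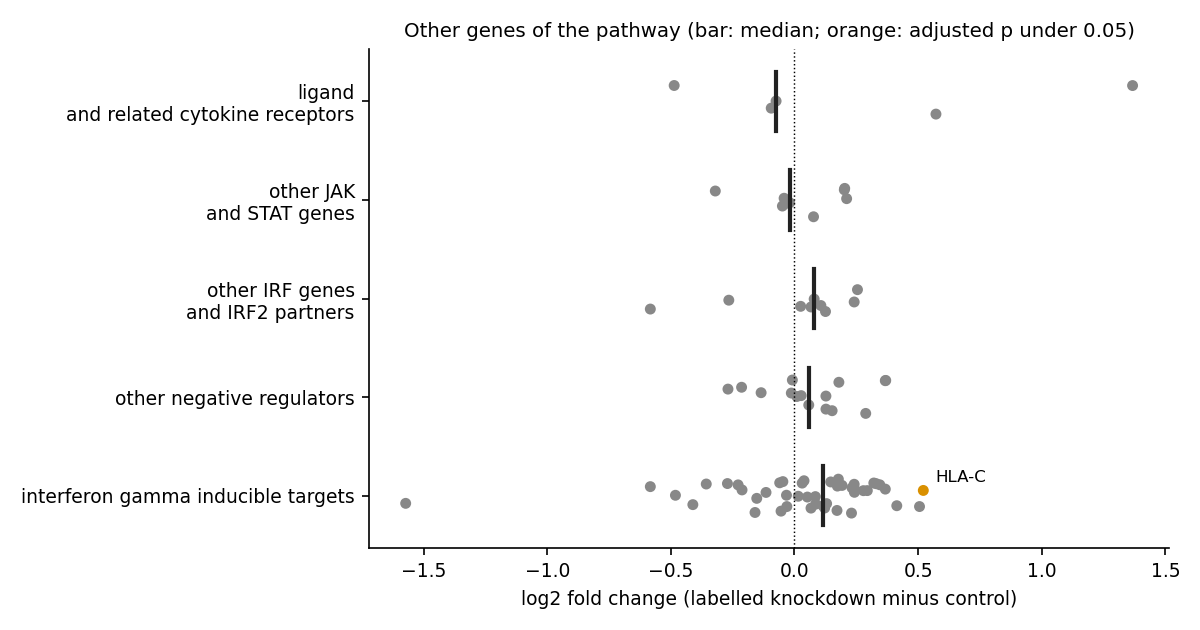
Log2 fold changes of the libraries labelled knockdown minus the control for the tested genes of the 5 pathway lists. Points are genes, spread vertically for legibility, black bars are list medians and orange marks an adjusted p under 0.05 in edgeR's test. The medians lie between -0.07 and 0.12, and HLA-C is the only orange point.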

How the data were processed

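RNA-seq was analysed in 1 control and 2 libraries with the label PD-L1 knockdown, grouped by their deposited labels. The authors deposited raw counts per gene and FPKM, made by a service company after poly(A) selection. The submitters' processing notes name Bowtie2 2.0.6, TopHat2 2.0.9, Cufflinks 2.1.1 and Cuffdiff 2.1.1. The counting tool and its strand setting are not given in the sources used here. The deposited FPKM equalled count over listed gene length and 1 constant per library. The labels give DMEM as the medium and the paper EMEM.

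Genes with at least 10 counts in sum were fitted in edgeR 4.0.16 (R 4.3.3) with TMM and the quasi-likelihood test, leaving 1 residual degree of freedom, and p-values were adjusted over all 19849 genes by Benjamini-Hochberg. The spread was shared by genes of like count (common dispersion over all genes 0.00719). The prior degrees of freedom of this fit were infinite. A gene's own spread between the libraries labelled knockdown thus carried no weight in edgeR's p-values and fitted intervals. CPM used effective library sizes. DESeq2 1.42.0, limma 3.58.1 and other scalings and filters were alternatives. The script was tested on simulated data. Library ratios carry exact Clopper-Pearson 95% intervals (SciPy 1.17.1) covering counting error only, since PCR reads are not independent molecules.

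Positions and shared words of 31 bases are from GENCODE of GRCh38, which held all 58735 gene identifiers. Named were the members, CD274 and, per list, genes called, the 3 with the highest mean FPKM, the 2 with the largest change at a mean of at least 100 counts, and genes at 0, of which some are not reported here. TAP1, APOL6, HLA-B, JAK3, CISH, TSHR, SLC5A5 and PTPN2P1 were named for counts or comparison after their values were seen, and genes overlapping a member with it. The members and lists were chosen with earlier results of these data known.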

Additional observations from a re-analysis of the deposited data

How the results depend on the processing

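No member of the axis was called under any of the 7 other tests, scalings and filters, and in 52 of 55 member values with a test the sign was that of the values above. The exceptions were near 0: IFNGR1 was 0.11 with the trends for GC content and length removed, and JAK1 was -0.0039 with library totals alone and -3.4e-05 in limma-voom. With the trends removed, IFNGR2 moved from -0.05 to -0.18, JAK2 from -0.32 to -0.15, PTPN2 from 0.01 to 0.13, IRF2 from 0.02 to 0.08 and CD274 from 0.05 to 0.18. The lowest adjusted p of a member under these was 0.506. Leaving out a library labelled PD-L1 knockdown left a value with no test. This value was a difference of log2 CPM with a prior count of 2, not the fitted log2 fold change. The prior count draws values of low counts, such as those of SOCS1, towards 0. On this scale SOCS1 was 0.45 to 0.74, IFNGR1 -0.08 to 0.02, IFNGR2 -0.17 to 0.05, IRF2 -0.11 to 0.15, PTPN2 -0.10 to 0.12 and JAK1 -0.0074 to 0.0109. JAK2 stayed at -0.39 to -0.25 and IRF1 at 0.12 to 0.28. SOCS1 gave no value with at least 10 counts required in every library.

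The number of genes called was 70, and 27 with the trends removed (21 higher, 6 lower), 6 in DESeq2 (3 higher, 3 lower) and 42 in limma-voom (24 higher, 18 lower). HLA-C was 0.32 with the trends removed and 0.52 in DESeq2, no longer past the threshold in either, so that 0 inducible targets were called there. Its adjusted p was 0.0126 to 0.0221 under the other 5.

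With the trends removed, the list medians were 0.0433 for the ligand and receptors, 0.0523 for the JAK and STAT genes, -0.0281 for the IRF genes and 0.0280 for the inducible targets. Leaving out 1 library labelled knockdown gave medians of log2 CPM differences, not of fitted values. These were -0.12 to 0.13 for the ligand and receptors, 0.0173 to 0.0436 for JAK and STAT genes, 0.0161 to 0.115 for the IRF genes, 0.0171 to 0.0987 for the negative regulators and 0.0709 to 0.115 for the inducible targets. With the length of the longest transcript, 6 of 8 members kept their place in the order of levels, PTPN2 passing IFNGR2. With the longest coding transcript, chosen after seeing the data, all 8 kept it.

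The causes of these shifts were not tested. No paired analysis was possible because both libraries labelled knockdown share the same control. With 1 control library, a change of that library alone cannot be told apart from one in both others.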
